A study of Rattus norvegicus with 6 samples.

Results

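The genes described here are those that build the voltage-gated and related cation channels of the cell membrane: the potassium channel genes (symbols that start with Kcn), the sodium channel genes (Scn followed by a digit) and the calcium channel genes (Cacna, Cacnb and Cacng). Each member was taken by symbol in the annotation of the array platform rather than by its value. The set itself was chosen with earlier results of these data known. Of 121 matching symbols, 118 had at least 1 probe set of their own with values, among 13949 such genes in all, and the other 3 (Kcnk5, Kcnk16 and Scn9a) were measured only by a probe set shared with another channel gene. The 118 members were 83 potassium, 11 sodium and 24 calcium channel genes.

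The cells were rat oligodendrocyte progenitor cells (OPCs) in primary culture, which divide and can mature into the glia that wrap axons in myelin, and their RNA was read on 6 Affymetrix arrays. 3 samples were exposed to fibrinogen for 12 h and 3 were left unstimulated as controls. Fibrinogen is the clotting protein that reaches nervous tissue where vessels leak, and the title of the series links it to bone morphogenetic protein (BMP) signaling in OPCs. Cells of both groups were isolated from pups at postnatal day 1 to 2 and had first spent 2 days in the same medium with N2, B27, NT3 and PDGF. The dose of fibrinogen is not given in the sources used here, and neither a strain nor the number of cultures behind the samples is stated.

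OPCs carry voltage-gated channels although they are not neurons. Their potassium channels set the resting potential and let cells move through the cell cycle, inward rectifiers of glia take up potassium released by active axons, and calcium entry through voltage-gated channels is linked to migration and myelin formation. Each calcium or sodium channel has a pore-forming alpha subunit, and most, though not all, also have auxiliary subunits that carry it to the membrane and tune its gating. Many potassium channels also bind auxiliary subunits.

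The values were log2 levels, 1 per gene and array, so a difference of 1 is a 2-fold difference. Markers of the labelled cell type were detected: all 8 measured OPC markers, among them Pdgfra and Cspg4, lay above a background level. So did all 8 oligodendrocyte, 8 of 9 astrocyte and 9 of 12 neuron markers, so this check does not tell OPCs from other neural cells. The level, 5.51, was the 95th percentile of 956 olfactory and vomeronasal receptor genes, which such cells should hardly use, and 71.3% of all genes lay above it. Of the channel genes, 68 of 118 did so. Median levels of all genes on the 6 arrays ran from 6.87 to 6.89 in fibrinogen and from 6.85 to 6.88 in control samples. Array fibrinogen 2 stood apart. Its genes deviated from the mean of its group with an SD of 0.146, against 0.110 and 0.114 for the other fibrinogen arrays and 0.0862 to 0.0939 for the controls.

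Fibrinogen changed 7 of the 118 channel genes in limma (Benjamini-Hochberg adjusted p under 0.05 over all 13949 genes), a share of 5.93%, beside 3.1% of all genes. 5 channel genes rose, beside 1.81% of all genes that rose, and 2 fell, beside 1.29% of all genes that fell. Those that rose were Kcna1 and Kcnd3, which form pores of voltage-gated potassium channels, Cacna1h, which forms the pore of a low-voltage-activated (T-type) calcium channel, Cacna2d1, an extracellular calcium channel subunit, and Scn2b, a sodium channel beta subunit. Those that fell were Kcnmb4, an auxiliary subunit of the large-conductance calcium-activated potassium channel, and Cacnb4, a cytoplasmic calcium channel subunit. The changes were modest, from 1.32-fold to 1.57-fold upward, and to 0.691 and 0.720 of the control level downward on the linear scale. All 7 were among the 68 members above the background level, of which they made up 10.3%, beside 4.14% of all genes above it. In bulk samples, a change in RNA per cell and a change in the share of cells that hold the RNA cannot be told apart.

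Promoters of the changed genes are shown so that genes of different channel families that moved can be set beside each other. RefSeq promoters (assembly GRCr8, 250 bases before to 50 after the start, on the gene's own strand) matched 83 of the 118 members and 4 of the 7 that passed. They are those of Kcnmb4 (chr7:54005052-54005351, minus strand), Cacna2d1 (the most upstream of several entries, chr4:20330098-20330397, minus strand), Kcnd3 (chr2:195626066-195626365, plus strand) and Scn2b (chr8:54322133-54322432, plus strand). Capitals mark GGCGCC, a GC-rich element known to bind Smads of the BMP pathway, and CANNTG, the E-box bound by the helix-loop-helix factors that Id proteins block.
Kcnmb4: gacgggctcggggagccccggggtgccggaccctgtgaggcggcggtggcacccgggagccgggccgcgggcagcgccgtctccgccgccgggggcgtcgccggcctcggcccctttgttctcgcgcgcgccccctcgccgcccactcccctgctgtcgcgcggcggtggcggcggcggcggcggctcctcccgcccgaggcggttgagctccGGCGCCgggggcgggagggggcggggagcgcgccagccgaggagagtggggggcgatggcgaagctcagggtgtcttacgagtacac
Cacna2d1: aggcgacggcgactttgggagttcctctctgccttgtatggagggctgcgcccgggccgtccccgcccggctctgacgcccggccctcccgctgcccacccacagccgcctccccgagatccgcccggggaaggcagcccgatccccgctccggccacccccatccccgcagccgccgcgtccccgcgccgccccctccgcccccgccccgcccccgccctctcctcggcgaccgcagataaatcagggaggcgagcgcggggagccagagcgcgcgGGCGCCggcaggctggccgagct
Kcnd3: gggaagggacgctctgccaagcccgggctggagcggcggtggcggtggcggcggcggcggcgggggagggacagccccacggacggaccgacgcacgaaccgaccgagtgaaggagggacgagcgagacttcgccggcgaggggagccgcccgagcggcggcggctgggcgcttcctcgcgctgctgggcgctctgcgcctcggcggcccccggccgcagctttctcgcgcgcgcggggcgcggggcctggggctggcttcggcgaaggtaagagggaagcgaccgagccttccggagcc
Scn2b: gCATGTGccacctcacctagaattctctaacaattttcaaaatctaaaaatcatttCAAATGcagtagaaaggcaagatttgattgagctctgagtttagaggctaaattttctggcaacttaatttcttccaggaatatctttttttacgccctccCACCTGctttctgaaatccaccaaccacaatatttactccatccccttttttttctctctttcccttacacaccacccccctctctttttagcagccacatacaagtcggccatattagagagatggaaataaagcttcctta

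The promoters of Kcnmb4, Cacna2d1 and Kcnd3 were GC-rich, with 80.7%, 78.3% and 77.7% G and C, against 39% in that of Scn2b and a median of 61.7% over the 92 promoter entries of channel genes. GGCGCC, which reads the same on both strands, occurred 1 time each in the promoters of Kcnmb4, which fell, and of Cacna2d1, which rose. It was absent from the windows of Kcnd3 and Scn2b. It is present in 20.7% of the promoter entries of channel genes, in 17.3% of those of all genes tested and in 11% of all 33469 entries. CANNTG, also its own reverse complement, occurred 3 times in the promoter of Scn2b and in none of the other 3 windows shown, and 67.4% of the entries of channel genes hold it, beside 66.7% of those of all genes tested and 72.1% of all entries. No window shown held both motifs. CAGAC, the core bound by Smads, and TGACGTCA, the cyclic AMP response element, were also searched on both strands and were in none of the 4 windows. They are in 53.3% and 0% of the entries of channel genes, beside 49.5% and 2.48% of those of all genes tested and 50.1% and 1.83% of all entries. The other 2 entries of Cacna2d1, which start further downstream, each hold 1 CAGAC, and they hold 2 and 1 GGCGCC. A match describes letters only.

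**Figure D1:**
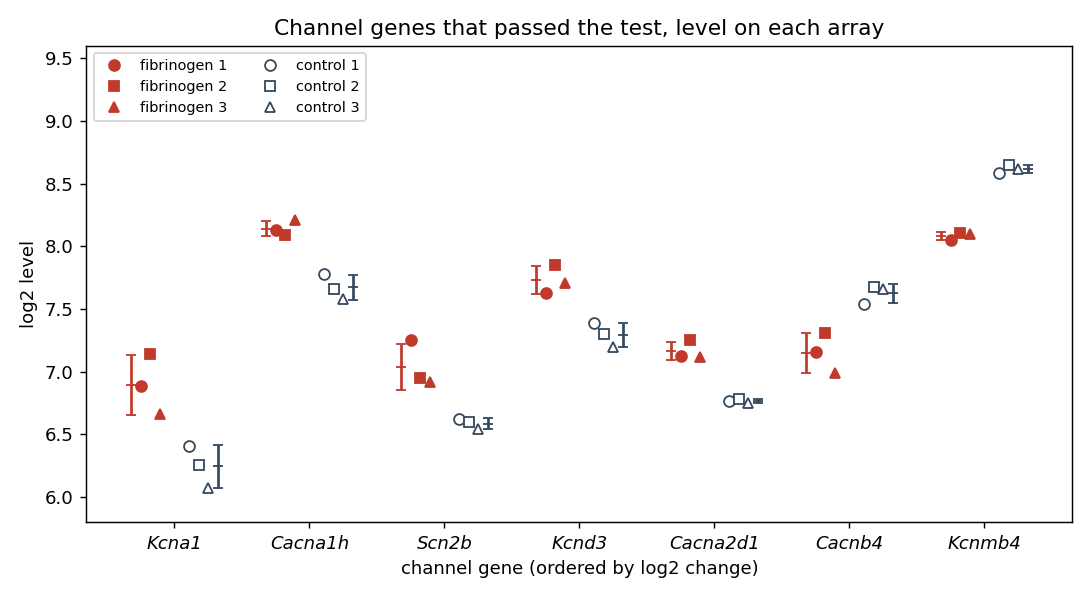
Log2 level (y axis) of the 7 channel genes that passed the test (x axis) on each of the 3 fibrinogen arrays (filled) and 3 control arrays (open), with the mean and SD of each group as bars beside the points. In all 7 genes the fibrinogen points lie wholly above (5 genes) or wholly below (2 genes) the control points.

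Among the voltage-gated potassium channel genes, 2 of 35 rose, 0 fell and 33 did not pass (4 higher, 4 lower at unadjusted p under 0.05 in limma). For this and the other subfamilies, the shares of all genes were 1.81% risen and 1.29% fallen. At the unadjusted threshold 8.12% of all genes were higher and 7.46% lower. Kcna1 encodes a Shaker-type subunit that opens at low voltages and clusters along myelinated axons. Its log2 level was 6.89, 7.14 and 6.66 on the fibrinogen arrays, against 6.41, 6.26 and 6.07 on the control arrays. All fibrinogen values lay above all control values, with fibrinogen 2 highest. The change of 0.65 ± 0.13 (SE) had an adjusted p of 0.0375 in limma and was the largest rise of any channel gene, 1.57-fold.

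Kcnd3 encodes a pore subunit of the fast-inactivating A-type potassium current. It had log2 levels of 7.63, 7.85 and 7.71 in fibrinogen samples, against 7.39, 7.30 and 7.20 in control samples. The groups did not overlap, and the change was 0.43 ± 0.09 (SE, adjusted p = 0.0337, limma). Its close relative Kcnd2, another A-type pore gene, averaged 8.38 ± 0.19 in fibrinogen and 8.48 ± 0.06 in control samples (SD, n = 3 each). The 95% interval of that difference, -0.33 to 0.13, included 0.

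The other Shaker-type genes did not pass. Kcna2, often found in the same channels as Kcna1, had a log2 change of -0.17 ± 0.07 (SE), opposite in sign to that of Kcna1 (adjusted p = 0.304, limma), with 6.72 ± 0.07 in fibrinogen and 6.89 ± 0.06 in control samples (SD, n = 3 each). Kcna5, a delayed rectifier gene tied to proliferation of OPCs, averaged 5.97 ± 0.07 in fibrinogen and 5.82 ± 0.06 in control samples, a difference of 0.15 with an interval of -0.01 to 0.32. Kcna6 and Kcna4 lay below the background level, with changes of 0.02 and 0.12 (that of Kcna4 was 0.0050 without fibrinogen 2), as did Kcna10, with -0.36 ± 0.11 (SE). Kcnc1, a fast delayed rectifier gene, had an interval of -0.16 to 0.25, and its relative Kcnc2, below background, one of -0.42 to -0.0039.

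The genes of the slow, muscarine-sensitive M-type current had changes of opposite sign. Kcnq3 averaged 5.92 ± 0.05 in fibrinogen and 5.70 ± 0.09 in control samples (SD, n = 3 each), and Kcnq5 averaged 6.32 ± 0.13 in fibrinogen and 6.62 ± 0.18 in control samples. Neither passed in limma (adjusted p = 0.182 for Kcnq3 and 0.206 for Kcnq5). Kcnh7, of the ether-a-go-go-related family, had a log2 change of -0.23 ± 0.12 (SE) below background.

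**Figure D2:**
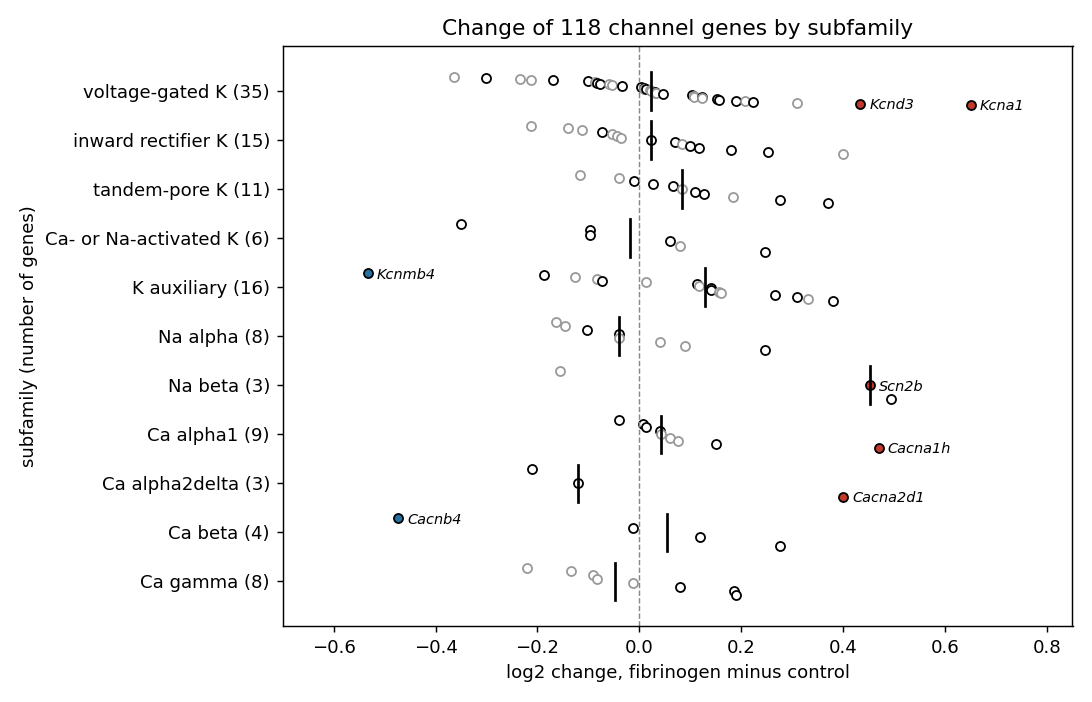
Log2 change, fibrinogen minus control (x axis), of each of the 118 channel genes (circles) by subfamily (y axis, with the number of genes). Filled circles passed the test, grey outlines lie below the background level, and vertical bars are subfamily medians, which run from -0.12 for the 3 alpha2delta genes to 0.45 for the 3 sodium channel beta genes.

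None of the 15 inward rectifier genes passed in limma (3 higher, 1 lower at unadjusted p under 0.05). Kcnj10, the main inward rectifier of glia, had log2 levels of 10.01, 10.14 and 10.27 on the fibrinogen arrays, against 9.88, 9.92 and 9.86 on the control arrays. Every fibrinogen value was above every control value, but the change of 0.25 ± 0.08 (SE) had an adjusted p of 0.166. Kcnj16, which forms mixed channels with Kcnj10, had 5.11, 4.80 and 4.95 in fibrinogen samples, against 4.46, 4.79 and 4.41 in control samples, all below the background level. Its groups were barely apart, at fibrinogen 2 and control 2, and its change of 0.40 ± 0.12 had an adjusted p of 0.133. Kcnj8, the pore of an ATP-sensitive channel and a marker of pericytes, had a change of -0.21 ± 0.09 below background.

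The tandem-pore-domain (Kcnk) channels carry the background potassium current that sets the resting potential. None of 11 passed in limma (2 higher, 0 lower at unadjusted p under 0.05), and 8 of 11 had a positive change. Kcnk10, a channel gated by stretch and fatty acids, had 9.25, 9.18 and 9.30 in fibrinogen samples, against 9.0, 8.94 and 8.96 in control samples. These groups did not overlap, and the change of 0.28 ± 0.07 (SE) had an adjusted p of 0.0749. Kcnk1 had a change of 0.37 ± 0.10 (adjusted p = 0.115), and Kcnk2, a relative of Kcnk10, one of 0.08 ± 0.08 below background.

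Calcium- or sodium-activated potassium channels and their partners held the change with the lowest adjusted p. Kcnmb4, the beta subunit that slows and shifts the gating of the large-conductance channel, had log2 levels of 8.05, 8.11 and 8.10 on the fibrinogen arrays, against 8.59, 8.65 and 8.62 on the control arrays. The values within a group lay close together and the groups were far apart. Its fall of 0.53 ± 0.07 (SE) had an adjusted p of 0.00412 in limma. Kcnma1, the pore with which this subunit assembles, averaged 6.74 ± 0.09 in fibrinogen and 6.84 ± 0.03 in control samples (SD, n = 3 each), and the interval of its difference was -0.26 to 0.07.

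Kcnt1, a sodium-activated channel, had 7.42, 7.46 and 7.42 in fibrinogen samples, against 7.68, 7.94 and 7.73 in control samples. The groups did not overlap and the change was -0.35 ± 0.08 (SE), with an adjusted p of 0.0667 in limma. Kcnt1 and Kcnk10 passed when genes below the background level were left out (adjusted p = 0.0399 and 0.0409), with array weights (0.0394 and 0.0269) and with intensity-dependent variances (0.0496 and 0.0428). None of the 6 pore genes of this kind passed (1 higher, 1 lower at unadjusted p under 0.05).

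Of 16 auxiliary potassium channel genes, 0 rose, 1 fell (Kcnmb4) and 15 missed the threshold in limma, with 4 higher, 1 lower at unadjusted p under 0.05. The calcium sensors Kcnip1 and Kcnip3 bind A-type channels such as Kcnd2 and Kcnd3. Kcnip3 averaged 9.38 ± 0.28 in fibrinogen and 9.24 ± 0.17 in control samples (SD, n = 3 each), with 9.70 on array fibrinogen 2, and Kcnip1, below background, changed by 0.33 ± 0.10 (SE, adjusted p = 0.126). Kcnip1 passed with array weights (adjusted p = 0.0227) and without fibrinogen 2 (0.0268, log2 change 0.43). Kcne2, a single-span subunit of several potassium channels, had a change of 0.38 ± 0.12, with groups that overlapped.

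Of the 11 sodium channel genes, 1 rose in limma, and the other 10 did not pass. Scn2b encodes a beta subunit with an immunoglobulin domain that raises channel density at the membrane and takes part in cell adhesion. It had log2 levels of 7.25, 6.95 and 6.92 on the fibrinogen arrays, against 6.62, 6.60 and 6.54 on the control arrays. The groups did not overlap, and fibrinogen 1 was highest. The rise of 0.45 ± 0.10 (SE) had an adjusted p of 0.0447, closest to the threshold among the genes that passed.

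Scn3b, a beta subunit of the other, non-covalently bound kind, had the second highest positive change of the set and a wide spread. Its levels were 6.31, 6.91 and 6.25 in fibrinogen samples, against 6.05, 6.06 and 5.88 in control samples, with fibrinogen 2 far above the other fibrinogen arrays. The change of 0.49 ± 0.16 (SE) had an adjusted p of 0.169 in limma, and it was 0.28 without fibrinogen 2.

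None of the 8 pore-forming sodium channel genes passed (1 higher, 0 lower at unadjusted p under 0.05 in limma). Scn2a, found in neurons and in some OPCs, had 6.39, 6.42 and 6.31 in fibrinogen samples, against 6.25, 6.04 and 6.09 in control samples, a change of 0.25 ± 0.08 (SE, adjusted p = 0.166). Scn3a, the form of the immature nervous system, had 7.53 ± 0.10 in fibrinogen and 7.63 ± 0.06 in control samples (SD, n = 3 each). A second probe set of Scn3a gave a change of 0.02 ± 0.17 (SE), against -0.10 ± 0.08 for the one used, and neither passed. Scn8a had an interval of -0.21 to 0.13. Scn1a and Scn7a lay below the background level.

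Among the 24 calcium channel genes, limma called 2 rises and 1 fall, and 21 did not pass. Cacna1h opens at voltages near rest and so lets calcium in after small depolarizations. Its log2 levels were 8.13, 8.09 and 8.21 on the fibrinogen arrays, against 7.78, 7.66 and 7.58 on the control arrays. The groups did not overlap, and the rise of 0.47 ± 0.08 (SE) had an adjusted p of 0.0168. Cacna1g, another T-type pore, averaged 6.29 ± 0.02 in fibrinogen and 6.14 ± 0.06 in control samples (SD, n = 3 each), a difference of 0.15 that did not pass (adjusted p = 0.339).

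The high-voltage-activated pores showed smaller differences that did not pass. Cacna1c and Cacna1d, which form L-type channels, had intervals of -0.24 to 0.32 and -0.11 to 0.26, and Cacna1a, of the P/Q type, one of -0.14 to 0.16. Cacna1d lay below the background level.

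Cacna2d1 encodes the alpha2delta subunit that raises channel number at the surface and binds gabapentin. Its log2 levels were 7.13, 7.25 and 7.12 in fibrinogen samples, against 6.77, 6.78 and 6.75 in control samples. The control arrays lay close together and below all fibrinogen arrays, and the rise of 0.40 ± 0.07 (SE) had an adjusted p of 0.0201 in limma. Its relatives Cacna2d2 and Cacna2d3 had changes of opposite sign, -0.12 ± 0.07 and -0.21 ± 0.09, which did not pass (adjusted p = 0.447 and 0.283).

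The beta subunits lie inside the cell and carry the pore to the membrane. Cacnb4 had log2 levels of 7.16, 7.31 and 6.99 in fibrinogen samples, against 7.54, 7.68 and 7.66 in control samples. The groups did not overlap, and its fall of 0.47 ± 0.09 (SE) had an adjusted p of 0.0346 in limma. Cacnb1, by contrast, averaged 7.43 ± 0.10 in fibrinogen and 7.16 ± 0.17 in control samples (SD, n = 3 each), a change of 0.28 that did not pass (adjusted p = 0.212). Cacnb3 had an interval of -0.17 to 0.14 and Cacnb2 one of -0.10 to 0.34.

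The gamma subunits Cacng4, Cacng5, Cacng7 and Cacng8 act mainly as partners of AMPA-type glutamate receptors, which OPCs use to receive synaptic input. None of the 8 gamma genes passed in limma (1 higher, 1 lower at unadjusted p under 0.05). Cacng4 had 10.90, 11.47 and 11.00 in fibrinogen samples, against 10.95, 10.95 and 10.91 in control samples, and Cacng7 had 9.96, 10.35 and 10.05 in fibrinogen samples, against 10.05, 10.05 and 10.02 in control samples. In both genes array fibrinogen 2 lay far above every control array, and the other fibrinogen arrays lay close to the controls. Without it their log2 changes were 0.01 and -0.04, against 0.19 and 0.08 with all arrays. Cacng8 changed by 0.19 ± 0.07 (SE, adjusted p = 0.221), and Cacng5 lay below background.

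**Figure D3:**
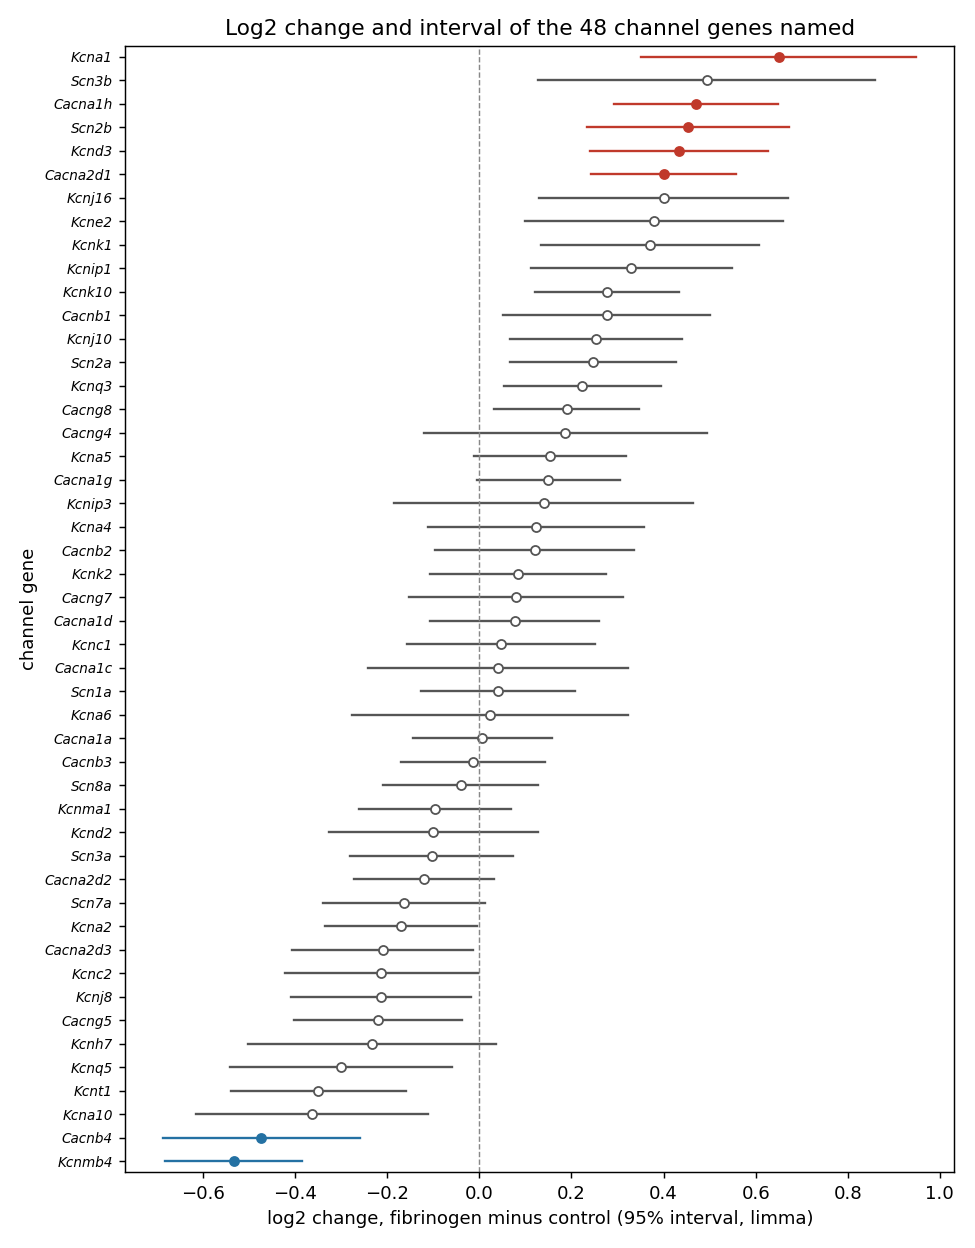
Log2 change, fibrinogen minus control (x axis), of 48 channel genes (y axis) with the 95% interval of the limma fit as a line. The 7 filled points passed the test, and the intervals of some open points also exclude 0 because the test was adjusted over 13949 genes.

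Over all 118 channel genes the median log2 change was 0.03, against -0.0033 over all genes, and 72 changes were positive and 46 negative, while 49.6% of all genes had a positive change. Groups did not overlap in 25 members with a higher and 9 with a lower level in fibrinogen samples. The same held for 10.7% and 10.6% of all genes. At an unadjusted p under 0.05, the levels of 21 members were higher and those of 10 lower, beside 8.12% and 7.46% of all genes. In the 68 members above the background level, 47 changes were positive and 21 negative (median 0.08), and in the 50 below it 25 had each sign (median -0.0017). None of these 50 passed in limma (3 higher, 4 lower at unadjusted p under 0.05), beside 0.5% of all genes below the level. These counts describe the set, and no test of the set was made.

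Calls rested on 3 arrays a group, and leaving out 1 array ended all but that of Kcnmb4 at least once. Kcnmb4 passed in all 6 such fits, with adjusted p-values of 0.00842 to 0.0310 and log2 changes of -0.55 to -0.52. Cacna1h held without fibrinogen 2 (0.0268) and control 1 (0.0319), and had 0.0528 and 0.0568 without fibrinogen 1 and 3, and 0.0830 and 0.0866 without control 2 and 3. Cacna2d1 held without fibrinogen 2 (0.0287) and 3 (0.0462), and had 0.0516 without fibrinogen 1 and 0.0819, 0.0902 and 0.102 without control 1, 2 and 3.

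Cacnb4 held without fibrinogen 2 (0.0203), and had 0.0957 and 0.0862 without fibrinogen 1 and 3, and 0.0794, 0.144 and 0.136 without control 1, 2 and 3. Kcna1 held without fibrinogen 3 (0.0262), and had 0.104 and 0.0680 without fibrinogen 1 and 2, and 0.0643, 0.127 and 0.141 without control 1, 2 and 3. Scn2b held in none of these fits, with 0.0816, 0.0557 and 0.0565 without fibrinogen 1, 2 and 3 and 0.134, 0.151 and 0.160 without control 1, 2 and 3. Kcnd3 likewise held in none, with 0.0516, 0.0571 and 0.0837 without fibrinogen 1, 2 and 3 and 0.0687, 0.131 and 0.140 without control 1, 2 and 3. The direction of the 7 changes could not turn in these fits, because the groups did not overlap in any of these genes. The number of members that passed was 2, 5 and 3 without fibrinogen 1, 2 and 3, and 2, 1 and 1 without control 1, 2 and 3.

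**Figure D4:**
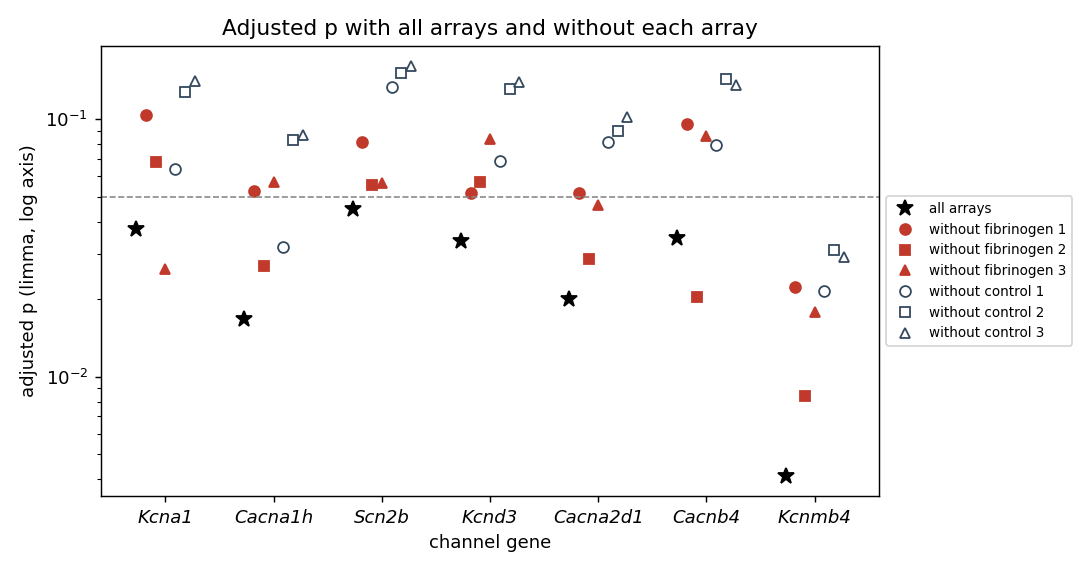
Adjusted p in limma (y axis, log scale) of the 7 channel genes that passed (x axis), with all arrays (stars) and without each array in turn (other symbols). The dashed line is the threshold of 0.05, and Kcnmb4 lies below it throughout.

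Other genes that move the same ions, or that bind and anchor the channels, were read from lists drawn up from general knowledge, with 88 of 103 genes measured. Of these, 2 rose, 1 fell and 85 missed the threshold in limma, a share called of 3.41%, beside 3.1% of all genes. Atp1b2, the glial beta subunit of the sodium pump that restores the gradients these channels use, had 11.17, 11.51 and 11.28 in fibrinogen samples, against 10.67, 10.70 and 10.72 in control samples. Its rise of 0.62 ± 0.09 (SE) had an adjusted p of 0.0106. Nedd4l, a ubiquitin ligase that removes sodium channels from the membrane, rose by 0.41 ± 0.07 (adjusted p = 0.0245). Asic1, an acid-sensing sodium channel, fell by 0.30 ± 0.07 (adjusted p = 0.0466).

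The 9 sodium pump genes measured held 1 rise, that of Atp1b2, and Atp1b1, at 0.42 ± 0.11 (SE), missed the threshold (adjusted p = 0.0974, limma). Levels of Atp1b1 were 8.49, 8.90 and 8.51 on fibrinogen arrays 1, 2 and 3. Without 1 array its change ran from 0.283 to 0.488. None of 21 genes of calcium release, store entry and extrusion passed (4 higher, 3 lower at unadjusted p under 0.05). The largest changes there were those of the sodium-calcium exchanger Slc8a1 (0.52 ± 0.14, adjusted p = 0.114) and the calcium pump Atp2b4 (0.38 ± 0.09, adjusted p = 0.0749). Atp2b4 alone passed with either filter on dim genes (adjusted p = 0.0466 and 0.0473), and Slc8a1 passed in 0 of 7 alternatives with all arrays in. Slc8a1 had levels of 6.85, 7.45 and 6.96 on fibrinogen arrays 1, 2 and 3. Its change ran from 0.335 to 0.635 without 1 array. None of 16 cation-chloride cotransporter and chloride channel genes passed (1 higher and 0 lower), and Slc12a4 and Clcn6 had 0.22 and -0.19. Without 1 array these ran from 0.11 to 0.38 for Slc12a4, which passed without fibrinogen 2 (adjusted p = 0.0326), and from -0.29 to -0.08 for Clcn6, nearest 0 without fibrinogen 2. Among 16 other cation channel genes, the fall was that of Asic1, and the leak channel Nalcn (-0.43 ± 0.10, adjusted p = 0.0690) and Trpc6 (-0.39 ± 0.11, below background) did not pass. Nalcn passed in 5 of 7 alternatives with all arrays in, with adjusted p-values of 0.0282 to 0.106 over the 7. Of 26 partners and anchors 1 (Nedd4l) rose, and Lrrc55, a gamma subunit of the large-conductance channel, had a change of 0.46 ± 0.11 below background (adjusted p = 0.0619, and 0.0477 without fibrinogen 3). The call for Atp1b2 ended without control 1, 2 or 3 (adjusted p = 0.0534, 0.0530 and 0.0513), that for Nedd4l without fibrinogen 3 or control 1, 2 or 3 (0.0565, 0.103, 0.101 and 0.103), and that for Asic1 without any 1 array (0.120, 0.0571 and 0.0999 without fibrinogen 1, 2 and 3, and 0.131, 0.199 and 0.158 without control 1, 2 and 3).

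Several of these channel genes are also used by astrocytes and neurons, so marker lists of the cells such a culture could hold are given beside them. Of all genes, 1.81% rose and 1.29% fell, and of those above the background level 4.14% passed in either direction. Of 9 astrocyte markers 2 rose, Gfap by 1.24 and Slc1a2 by 0.65 on the log2 scale, and 7 did not pass, among them S100b (0.46), Aqp4 (0.01), Gja1 (-0.04) and Agt (-0.12). The list's mean log2 level, in which Gfap weighs most, was 7.89 to 7.98 in fibrinogen samples, against 7.62 to 7.67 in control samples. OPC markers were lower, with 4 of 8 falling (Pdgfra, Cspg4, Gpr17 and Neu4) and means of 10.20 to 10.34 in fibrinogen samples, against 10.53 to 10.57 in control samples. Of 8 oligodendrocyte markers 2 fell, Cnp and Ugt8, with means of 8.50 to 8.65 in fibrinogen and 8.58 to 8.65 in control samples. Of these 8 changes 5 were positive and 3 negative. The highest was that of Cldn11 (0.38, adjusted p = 0.169 in limma), whose groups did not overlap.

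Of 12 neuron markers 0 rose and 1 (Gad2) fell, and 9 lay above the background level, with Gad1, Gad2 and Slc17a6 below it. Of the 12 changes, 7 were positive and 5 negative. At an unadjusted p under 0.05 in limma, Nefm (0.38) and Nefl (0.32) were higher and Gad2 (-0.58) lower. In each of these genes the groups did not overlap. The neuron list had a mean level of 7.14, 7.36 and 7.18 on fibrinogen arrays 1, 2 and 3, against 7.17 to 7.21 in control samples. Array fibrinogen 2 thus lay above all others in this mean, but its markers did not move alike. Rbfox3, Snap25, Syt1, Nefl, Nefm and Map2 were highest of all arrays there, and Tubb3, Stmn2 and Gad1 were lowest. Syt1 stood furthest apart, at 8.58 on fibrinogen 2, against 7.61 and 7.60 on fibrinogen 1 and 3. The 68 channel genes above background had means of 6.77, 6.84 and 6.78 on fibrinogen arrays 1, 2 and 3, against 6.71 to 6.73 in control samples, with fibrinogen 2 again highest. Without fibrinogen 2 the log2 change of Kcna1 was 0.53, that of Kcnd3 0.37 and that of Cacna2d1 0.36, and those of Cacna1h and Scn2b were 0.50 each. None of 10 microglia, 5 endothelial or 7 pericyte and smooth muscle markers passed in limma (0, 0 and 2 at an unadjusted p under 0.05). Of these, 6, 3 and 4 lay below the background level, among them Aif1, Csf1r, Cldn5 and Pdgfrb. The part of other cells in the channel gene changes was not tested.

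**Figure D5:**
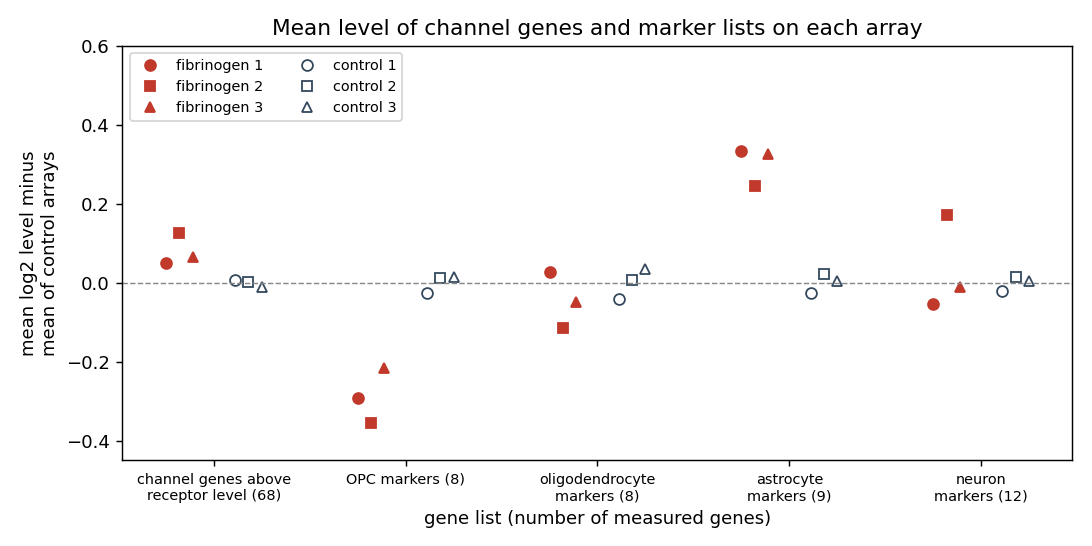
Mean log2 level of each gene list minus its mean over the control arrays (y axis), for the 68 channel genes above the background level and 4 marker lists (x axis), on each fibrinogen array (filled) and control array (open). Fibrinogen 2 is the highest array for the channel genes and for the neuron markers, and the 3 fibrinogen arrays lie together above the controls for astrocyte and below them for OPC markers.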

How the data were processed

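The deposited table holds log2 levels, 1 per probe set and array, which the authors had normalized: RMA and limma are named, with no version or role, per the submitters' processing notes, and the log2 scale was inferred from the values. RMA can compress differences of dim genes. Scanner files were not used here. Per the labels' protocols, cDNA was amplified and biotin-labelled with NuGEN kits. Of 26312 probe sets, 1206 were blank on every array and 14700 of the rest had 1 gene symbol in the platform's annotation. The probe set with the highest mean was used for each of 13949 genes. Near-identical genes may share probes.

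Titles give each sample's group. Nothing in the labels says that replicates were separate cultures, so the p-values cover only the spread among these 6 samples, which may be technical. No pair of arrays shared more than 3.63% of its gene values. All genes were fitted together, fibrinogen minus control, by lmFit and eBayes (limma 3.58.1, R 4.3.3; two-sided tests), and p-values were Benjamini-Hochberg adjusted over all genes. The number of arrays limits the precision, and with 3 arrays a group the smallest exact permutation p is 0.1, so no such test was used. The procedure was also run on simulated data with independent noise, only to check that it returns changes that were put in. That run does not vouch for the calls made here. Tables were handled with Python 3.11.15.

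The members, lists and alternatives were chosen with earlier results of these data known. Named genes are those that passed, the 10 largest rises and 10 largest falls, and fixed genes known from OPCs and other neural cells (48 members in all), and of other ion transport genes those that passed and up to 2 per list.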

Additional observations from a re-analysis of the deposited data

How the results depend on the processing

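Median centring, mean probe set values, both filters on dim genes, intensity-dependent variances and array weights kept the 7 channel gene calls. These 7 genes have 1 probe set each, so mean probe set values left their levels unchanged. The filters left out mainly genes that did not pass, so they could hardly end these calls. The alternatives left 6 to 10 members with all arrays in, and 1 to 5 without 1 array. Array weights called 659 genes in all, against 432 in the main fit, and leaving out 1 array 151 to 436. The replicate number as a block called 315 genes and 6 channel genes, with Kcnd3 at an adjusted p of 0.0622 and Asic1 at 0.106. Deviations of same-numbered samples correlated only weakly, at 0.0278, 0.0217 and 0.0109, although each sample correlated best with its own number. Those of differently numbered samples correlated at -0.0213 to -0.00158. Whether the numbers pair the samples is not stated, and these values cannot settle it. The median log2 change of the channel genes was 0.0800 with the filter at the 30th percentile of all genes and 0.0750 with that at the receptor percentile, which leave out dim members, and 0.0142 to 0.0550 without 1 array. Other ion transport genes that passed numbered 6 with either filter and 5 with intensity-dependent variances, against 3 in the main fit, and 0 to 3 without 1 array. The 0 stood without control 1, 2 or 3, where 18, 20 and 20 of them had an unadjusted p under 0.05 in limma. Marker genes that passed numbered 3 to 9 without 1 array.

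Signs turned in genes near 0. Cacna1a changed by -0.0067 after centring. Without 1 array the log2 changes ran from -0.0217 to 0.0283 for Cacna1a, -0.0567 to 0.183 for Cacna1c, -0.04 to 0.0117 for Cacnb3, -0.035 to 0.16 for Cacng7, -0.11 to 0.13 for Kcna6, -0.0283 to 0.0967 for Kcnc1, -0.18 to 0.0050 for Kcnd2, -0.0183 to 0.242 for Kcnip3 and -0.0917 to 0.0033 for Scn8a. Kcna10 passed without fibrinogen 1 (adjusted p = 0.0471, limma). The cause was not tested. Levels near background limit what can be said of the 50 members below it.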
